A study of Mus musculus with 9 samples.

Results

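Protein synthesis begins with a set of proteins, the eukaryotic initiation factors (eIFs), that carry the initiator tRNA to the small ribosomal subunit, recruit the mRNA through its cap and join the large subunit at the start codon. The mouse genes of these factors are named Eif1 to Eif6. Every gene of the deposited expression table whose symbol begins in that way was taken, apart from the Y-linked Eif2s3y, which served as a check on the sex of the animals. This gave 57 of the 27095 loci in the table, and 55 of them had a mean level of at least 1 FPKM over the 3 groups. FPKM are fragment counts divided by exon length and by the size of the library, so levels of different genes can be compared with each other.

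RNA was sequenced from wild-type C57BL/6 (in the methods, C57BL/6J) mouse fetuses on gestational day 17 (GD17). Control fetuses came from dams injected with lactated Ringer's solution on gestational day 7, and EtOH-exposed fetuses from dams injected intraperitoneally with 2.9 g/kg EtOH on that day. The EtOH-exposed affected fetuses had ocular and craniofacial defects and the EtOH-exposed unaffected fetuses had none, with 3 animals in each of the 3 groups, so the affected and unaffected groups share the exposure and were separated by the scored phenotype, and they also differed by sex, as shown further on. The sample labels call the tissue fetal brain, whereas the methods call it cortex, and all 7 of the markers of cortical neurons and progenitors examined, such as Tbr1, were detected in every group.

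The table gives 1 pooled value per group and none per animal, so the spread between animals is not shown and no difference below was tested here or checked by replicate. The authors' own test results, which the table also holds, were not used. The depth of each library is not given in the sources used here. Differences are therefore described as log2(FPKM + 0.1) of one group minus that of another, and a gene was counted as past the threshold where this reached a fold of 1.2, a log2 difference of 0.26. Differences followed transcript length across the whole table, so a length-adjusted value, the difference less the running median of loci of like length, is also given beside many of the results. Both comparisons of the affected group share its values, so they are not independent of each other. In bulk tissue, fewer cells of a type and less RNA per cell cannot be told apart. The summed level of the cortical markers was 660.2 FPKM in the control, 618 in the unaffected and 721 in the affected group, and that of 8 erythroid loci was 5816, 7527 and 3653 FPKM. Choroid plexus markers summed to 995, 1322 and 1107 FPKM, thalamic markers to 8.92, 6.82 and 6.75, microglial markers to 63.8, 67.4 and 56.5, endothelial markers to 56.3, 56.8 and 59.2, and meningeal markers to 68.2, 62.6 and 59.4, and no marker found in the table was at 0 in all groups. Although the endothelial sums were close, 2 of the 4 endothelial markers were higher past the threshold in the affected group against both others. So were 3 of the 7 cortical markers, Bcl11b, Tbr1 and Eomes, while the cortical sum was mostly that of Neurod6. Of all loci, 17.5% were higher past it against control and 25.1% against unaffected. The erythroid sum was mostly that of the joined Hbb locus, and the choroid plexus sum that of Ttr. Against control, 3 erythroid loci were lower past it, beside 15.6% of all loci, and Hba-x and Hbb-y were higher. The part of these differences in cell makeup in the results below was not tested.

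Initiation is set by a small number of steps that the cell can regulate. The eIF2 complex brings the initiator tRNA and must be recharged with GTP by eIF2B after each round. The 4 eIF2 kinases, each switched on by a different stress, phosphorylate the alpha subunit of eIF2, which blocks eIF2B and lowers protein synthesis in general while a few mRNAs such as that of Atf4 are translated more. The second regulated step is at the cap, where eIF4E, eIF4G and the helicase eIF4A form a complex that the eIF4E-binding proteins (4E-BPs) prevent unless the kinase mTOR phosphorylates them. All of these controls act on proteins, which RNA levels do not report.

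Eif4a2, Eif2s1 and 10 of the 13 eIF3 genes, 5 of them past the threshold, were lower in affected fetuses than in either other group, and the scaffold genes Eif4g1 and Eif4g3 and the inhibitor gene Eif4ebp2 were higher, while the count of genes past the threshold against control was near that of all loci. Adjusted for length, none of these 5 eIF3 genes and neither scaffold gene stayed past the threshold against control, whereas Eif4a2, Eif2s1 and Eif4ebp2 did. Affected against control, 8 of the 55 genes were lower past the threshold, where 15.6% of all 15548 loci with a mean of at least 1 FPKM were, and 9 were higher, where 17.5% of all loci were. Affected against unaffected, 18 were lower and 14 higher, against 22.9% and 25.1% of all loci. Unaffected against control, 3 were lower (Eif2s3x, Eif3a and Eif4g3) and 1 was higher (Eif4ebp1), against 9.4% and 7.15% of all loci. The share of these genes was close to that of all loci in both directions for affected against control and in the higher direction for affected against unaffected, above it for the 18 genes lower against unaffected, and below it in both directions for unaffected against control. The last of these depends on the minimum level. With a minimum of 5 FPKM, 4.87% of loci were lower and 3.83% higher for unaffected against control, beside the same 3 and 1 genes among 50. The median log2 difference of the 55 genes was -0.09 for affected against control, -0.15 for affected against unaffected and 0.06 for unaffected against control, where the medians of all loci were 0.02, 0.01 and 0.01. Adjusted for length, the first 2 medians of the 55 genes were -0.006 and -0.021.

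**Figure D1:**
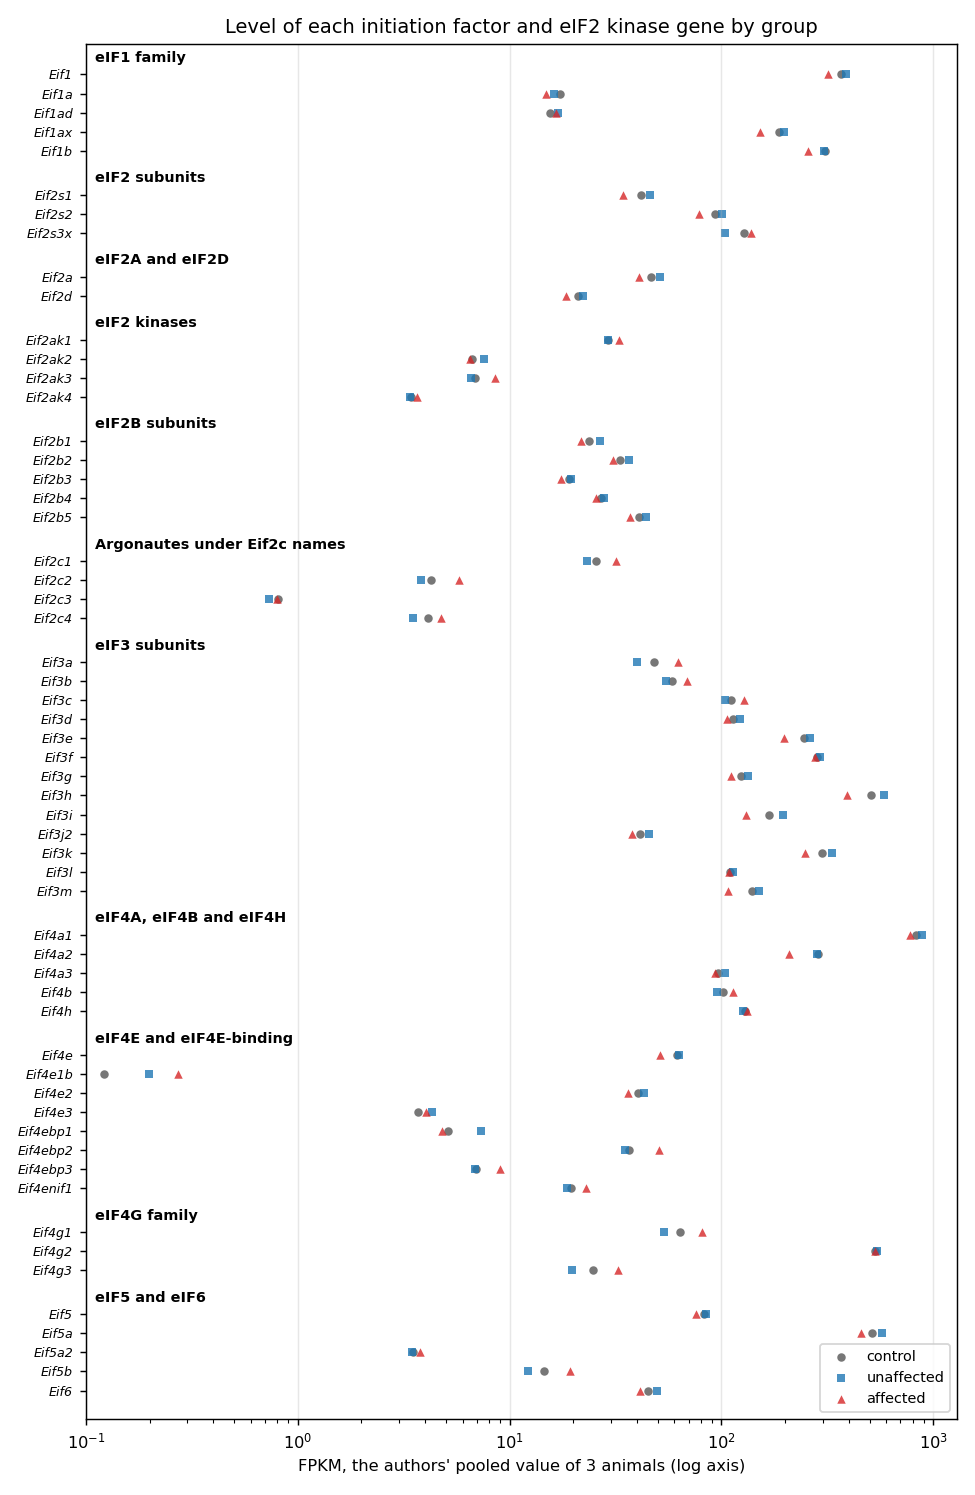
Level of the 57 genes in FPKM on a log axis, grouped by factor, with circles for control, squares for EtOH-exposed unaffected and triangles for EtOH-exposed affected fetuses, each the authors' pooled value of 3 animals without an error. Levels run from 0.12 FPKM for Eif4e1b in the control group to 884 FPKM for Eif4a1 in the unaffected group, and differences between groups are small beside the differences between genes.

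The groups were most often ranked in the order unaffected, control, affected. In 31 of the 55 genes (56.4%) the unaffected group was highest and the affected group lowest, an order held by 30.9% of all loci. The opposite order, with the affected group highest and the unaffected group lowest, was held by 18 genes (32.7%) and by 32.2% of all loci, and 6 genes had another order. In most of these genes the 2 exposed groups therefore lay on opposite sides of the control group. The Y-linked genes, given further on, were also ranked unaffected, control, affected, and the control group held RNA of both Xist and the Y-linked genes. This order and the sex of the animals therefore cannot be told apart. Adjusted for length, an alternative added after seeing the data, 20 of the 31 genes and 14 of the 18 kept their order. In all, 22 genes (40.0%) then had the first order and 17 (30.9%) the second, beside 29.5% and 29.6% of the 12333 loci with a length.

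eIF2 itself has an alpha subunit that is the target of the kinases, encoded by Eif2s1, a beta subunit encoded by Eif2s2, and a gamma subunit that holds the GTP, encoded by the X-linked Eif2s3x and the Y-linked Eif2s3y. Eif2s1 (chr12:78862072-78888270 of the mm10 build, plus strand) was at 41.8 FPKM in the control, 45.9 in the unaffected and 34.1 in the affected group. The affected group was the lowest, by -0.29 against control and -0.43 against unaffected on the log2 scale, both past the threshold. Eif2s2 (chr2:154871410-154892906, minus strand) was at 93.0, 101 and 78.7 FPKM, with log2 differences of -0.24 and -0.36, of which the second was past the threshold. The ratio of Eif2s2 to Eif2s1 was 2.225 in the control, 2.199 in the unaffected and 2.306 in the affected group, so the proportion of the pair was close in the 3 groups.

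Eif2s3x (chrX:94188709-94212651, minus strand) went the other way. Its level was 128 FPKM in the control, 104 in the unaffected and 138 in the affected group, which placed the affected group 0.41 above the unaffected and 0.11 above the control group on the log2 scale. Its Y-linked copy Eif2s3y was at 6.56, 21.01 and 0.04 FPKM, or 4.86%, 16.9% and 0.0269% of the summed level of the pair. Summed, the pair was at 135, 125 and 138 FPKM, and the log2 difference between affected and unaffected was 0.15 in place of 0.41. The ratio of Eif2s3x to Eif2s1 was 3.07 in the control, 2.26 in the unaffected and 4.05 in the affected group.

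The other sex-linked genes gave the same division of the animals. Xist, the RNA that silences an X chromosome in females, was at 9.24 FPKM in the control, 0.02 in the unaffected and 10.3 in the affected group. The Y-linked Ddx3y was at 2.66, 8.40 and 0.01 FPKM, Kdm5d at 1.67, 5.45 and 0 FPKM, and Uty at 1.06, 3.63 and 0 FPKM. Xist was thus near 0 in the unaffected group and the Y-linked genes near 0 in the affected group, so that in every comparison of these groups the sex of the animals and the phenotype cannot be told apart.

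**Figure D2:**
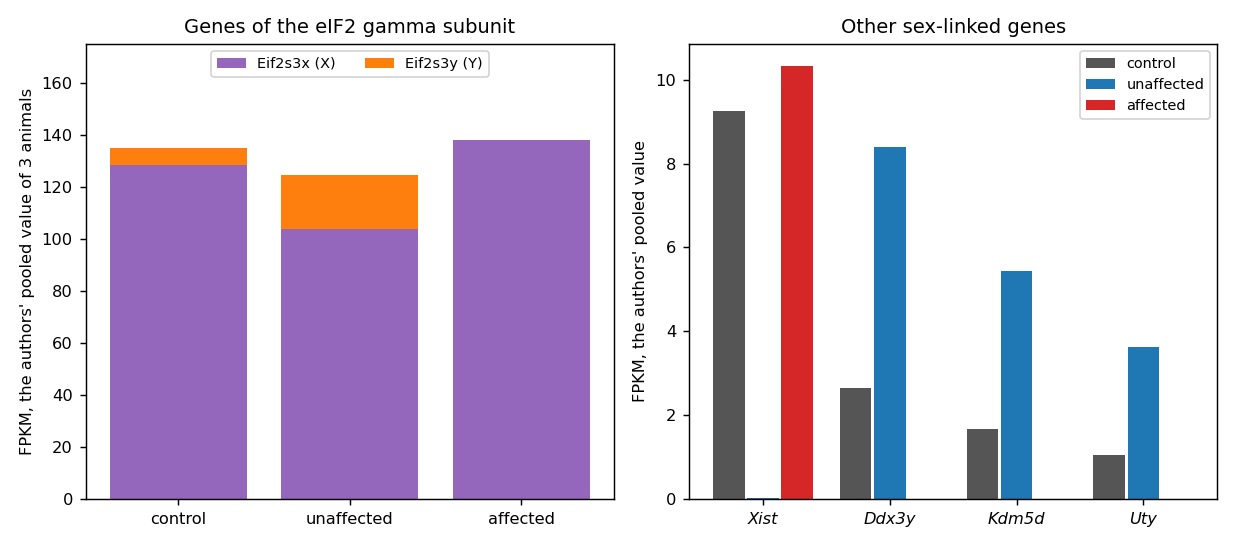
Left, level in FPKM of the X-linked (purple) and Y-linked (orange) genes of the eIF2 gamma subunit, stacked for each group. Right, level in FPKM of Xist and 3 other Y-linked genes, with 1 bar for each group. Bars are the authors' pooled values of 3 animals without an error, and show Eif2s3y and the other Y-linked genes highest in the unaffected and near 0 in the affected group, with Xist at 0.02 FPKM in the unaffected group.

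The gene of the heme-regulated kinase HRI, Eif2ak1, was the most abundant of the 4 eIF2 kinase genes. Eif2ak1 (chr5:143817810-143909839, plus strand) was at 29.0 FPKM in the control, 29.1 in the unaffected and 33.0 in the affected group, which is 63.1%, 62.3% and 63.9% of the summed level of the 4 kinase genes. Its log2 difference was 0.18 against both other groups, short of the threshold. This locus also covers the coding genes Aimp2 and Ankrd61, and reads from overlapping genes cannot be told apart where the counting did not use strand.

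Eif2ak3, the gene of PERK, the kinase that senses unfolded proteins in the endoplasmic reticulum, was the only kinase gene past the threshold. Eif2ak3 (chr6:70844527-70905240, plus strand) was at 6.87 FPKM in the control, 6.58 in the unaffected and 8.50 in the affected group. The affected group lay above both others, by 0.30 and 0.37 on the log2 scale. Eif2ak2, the gene of PKR, which double-stranded RNA activates, was at 6.68, 7.59 and 6.51 FPKM (chr17:78850505-78882572, minus strand), in a locus that carries the joined name of Gm6548 and also covers Gm26637, so reads of those may be included. Here the unaffected group stood above the others, with log2 differences of -0.04 for affected against control and -0.22 for affected against unaffected. Eif2ak4, the gene of GCN2, which uncharged tRNA activates, was the lowest at 3.44, 3.39 and 3.65 FPKM (chr2:118388617-118475296, plus strand), and its log2 differences of 0.08 and 0.10 were within the threshold and turned to -0.09 and -0.14 when adjusted for length. The summed level of the kinase genes was 46.0 FPKM in the control, 46.6 in the unaffected and 51.7 in the affected group.

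The genes around the kinases gave no common direction. Of 16 genes found in a list of kinase regulators, eIF2 phosphatase subunits and outputs of the pathway, 15 had a mean of at least 1 FPKM. Affected against control, 2 of them were lower and 1 higher past the threshold, and affected against unaffected 5 were lower and 1 higher, with medians of -0.17 and -0.23 on the log2 scale. The shares of all loci are 15.6% lower and 17.5% higher against control, and 22.9% and 25.1% against unaffected. Gcn1l1, whose protein is needed to activate GCN2, was at 7.85 FPKM in the control, 6.52 in the unaffected and 10.7 in the affected group, with log2 differences of 0.45 and 0.71. Prkra, whose protein activates PKR, was at 53.8, 58.6 and 44.5 FPKM, with log2 differences of -0.27 and -0.39, and Nck1, an adaptor that binds an eIF2 phosphatase, at 13.8, 15.0 and 10.8 FPKM, with -0.35 and -0.47. Gcn1l1 was highest and Prkra and Nck1 were lowest in the affected group. Adjusted for length, Prkra was within the threshold in both comparisons, at -0.15 and -0.20, as was Gcn1l1 against control, at 0.20, while Nck1 was past it at -0.40 and -0.52.

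Among the outputs of eIF2 phosphorylation, Atf4, the transcription factor whose translation rises with eIF2 phosphorylation and whose RNA can rise as well, was at 62.7 FPKM in the control, 67.4 in the unaffected and 53.1 in the affected group, with log2 differences of -0.24 and -0.34, or -0.14 and -0.17 adjusted for length. Ddit3, the gene of CHOP and a target of ATF4, was at 16.6, 17.2 and 14.3 FPKM, so both were lowest in the affected group, though the length-adjusted values of Ddit3 were above 0, at 0.06 and 0.13. Ppp1r15a, the stress-induced phosphatase subunit GADD34, was at 5.64, 5.68 and 5.72 FPKM, with log2 differences of 0.02 and 0.01. Trib3, another target, was at 0.178, 0.271 and 0.278 FPKM, under the minimum.

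All 5 subunits of eIF2B, the exchange factor that eIF2 phosphorylation blocks, were lowest in the affected and highest in the unaffected group. Their log2 differences ran from -0.15 to -0.08 against control and from -0.30 to -0.14 against unaffected, so that Eif2b1 alone passed the threshold and only against unaffected. These directions are not all kept when the trend over transcript length, described further on, is subtracted. The medians of the 5 are then -0.01 and -0.06, with Eif2b1 at -0.17 against unaffected and so within the threshold, Eif2b2 and Eif2b3 slightly above 0 against control, and Eif2b3 and Eif2b4 against unaffected. Eif2b1 (chr5:124570214-124579057, minus strand), a regulatory subunit, was at 23.8 FPKM in the control, 26.6 in the unaffected and 21.7 in the affected group. Eif2b5 (chr16:20498817-20509325, plus strand), the catalytic subunit, was the most abundant at 40.9, 44.1 and 36.9 FPKM, and Eif2b3 the least at 19.1, 19.5 and 17.6 FPKM. The summed level of eIF2B over that of the 3 eIF2 subunits was 0.547 in the control, 0.618 in the unaffected and 0.527 in the affected group. The related factors Eif2a (46.5, 51.0 and 40.8 FPKM) and Eif2d (21.002, 22.2 and 18.6 FPKM), which can deliver initiator tRNA without eIF2, had the same order of groups, and Eif2a was past the threshold against unaffected at -0.32. The locus of Eif2a also covers Serp1.

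eIF3, the largest initiation factor, holds the small subunit and mRNA together, and its 13 subunit genes were divided into 2 sets of opposite direction. Eif3a, Eif3b and Eif3c, which encode the 3 largest subunits, were highest in the affected and lowest in the unaffected group. The other 10 were lowest in the affected and highest in the unaffected group, though Eif3g and Eif3l lay above 0 in both comparisons of the affected group once the trend over transcript length was subtracted. This division was seen in the values and not chosen in advance of them. Eif3a (chr19:60755987-60790693, minus strand) was at 47.9 FPKM in the control, 39.7 in the unaffected and 62.1 in the affected group, with log2 differences of 0.38 against control and 0.64 against unaffected. The locus of Eif3a also covers Nanos1. Eif3b (chr5:140419305-140443358, plus strand) was at 58.3, 54.9 and 69.1 FPKM, and Eif3c (chr7:126546306-126566400, minus strand) at 111, 104 and 127 FPKM, and both passed the threshold only against unaffected, at 0.33 and 0.29. Adjusted for length, Eif3a was at 0.21 against control, within the threshold, and 0.40 against unaffected, past it, and against unaffected Eif3b was past it at 0.30 and Eif3c within it at 0.19.

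Among the 10 subunit genes that were lower, Eif3e, Eif3h, Eif3i, Eif3k and Eif3m were past the threshold against both other groups, and Eif3g and Eif3j2 against the unaffected group alone. Adjusted for length, none of the 5 was past it against control, and Eif3h and Eif3i alone of them against unaffected. Eif3h (chr15:51786563-51865461, minus strand), the most abundant eIF3 gene, was at 506 FPKM in the control, 584 in the unaffected and 391 in the affected group, with log2 differences of -0.37 and -0.58. Eif3i (chr4:129591974-129600648, minus strand) was at 168, 195 and 131 FPKM, with log2 differences of -0.36 and -0.57. In both genes the affected group lay farther below control than the unaffected group lay above it.

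Eif3m (chr2:104886324-105017027, minus strand) was at 139, 150 and 107 FPKM, with log2 differences of -0.38 and -0.49, and its locus in the table runs on over the neighbouring gene Ccdc73. Eif3e (chr15:43250040-43282736, minus strand) was at 245 FPKM in the control, 262 in the unaffected and 198 in the affected group, with log2 differences of -0.31 and -0.41. Eif3k (chr7:28971370-28981819, minus strand) was at 299, 332 and 247 FPKM, with -0.28 and -0.43. In each the affected group was lowest. Eif3e, Eif3h, Eif3k and Eif3m encode parts of the structural core of the complex, to which the products of Eif3a and Eif3c also belong, while Eif3i encodes a partner of eIF3b and eIF3g outside it, so the division by direction does not follow these modules.

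Eif3d, Eif3f and Eif3l were closest between groups, with log2 differences of affected against control of -0.09, -0.03 and -0.01. The least abundant by its mean over the groups, Eif3j2, was at 41.3, 45.5 and 37.9 FPKM. RefSeq names the gene at this place Eif3j1, and the locus in the table runs on over Spg11, so its value is uncertain. The ratio of Eif3h to Eif3a was 10.6 in the control, 14.7 in the unaffected and 6.30 in the affected group. Their transcripts differ in length, at 1295 and 5125 nt, and this ratio was not adjusted for length. The summed level of the 13 genes was 2243, 2429 and 1971 FPKM.

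**Figure D3:**
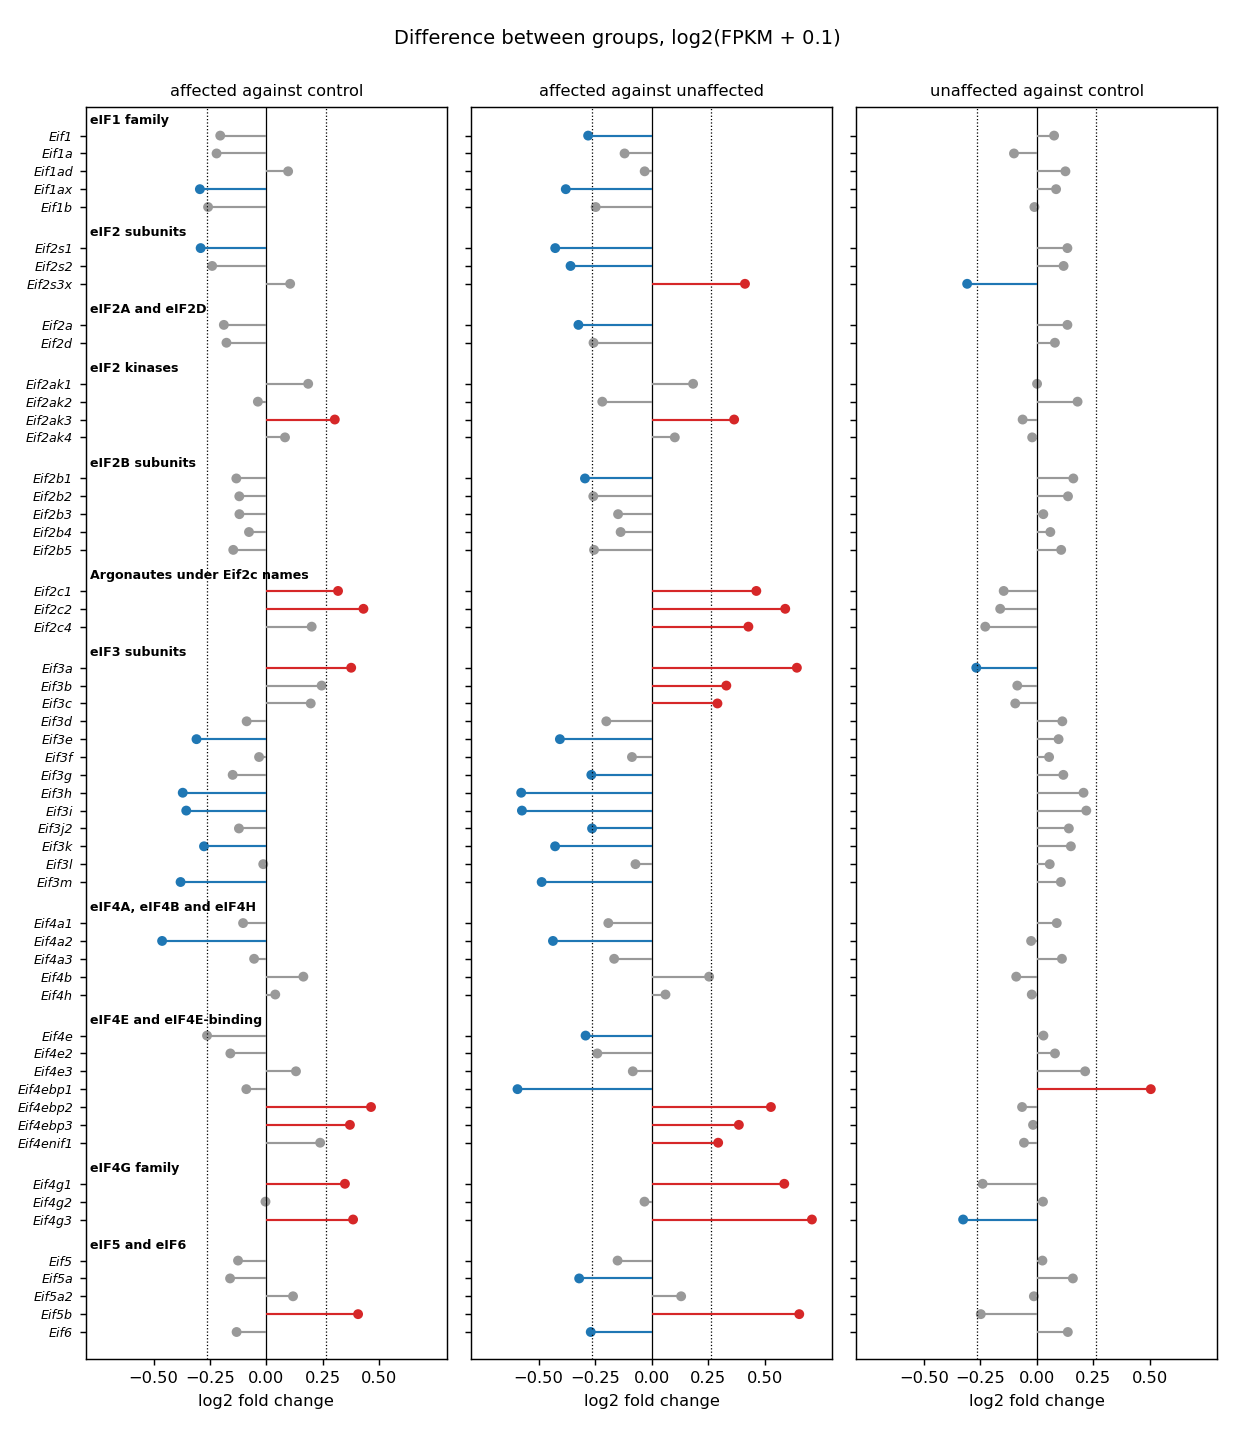
Log2 difference of FPKM + 0.1 between the groups named above each panel, for the 55 genes with a mean of at least 1 FPKM, grouped by factor. Dotted lines mark a fold of 1.2, blue marks genes lower and red genes higher past it, and grey those within it. Eif3a, Eif3b and Eif3c lie to the right of 0 and the other 10 eIF3 genes to the left in both panels of the affected group, and 4 genes in all pass a line in the panel of unaffected against control.

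The helicase eIF4A unwinds the mRNA near the cap, and its paralogs were divided. Eif4a1 (chr11:69666936-69672423, minus strand), the most abundant of the 57 genes, was at 831 FPKM in the control, 884 in the unaffected and 774 in the affected group, within the threshold at -0.10 and -0.19. Eif4a2 (chr16:23107479-23127730, plus strand), the paralog prominent in nervous tissue, was at 286, 281 and 208 FPKM. The affected group was the lowest and the control and unaffected groups were close, with log2 differences of -0.46 against control, -0.44 against unaffected and -0.03 for unaffected against control. The ratio of Eif4a1 to Eif4a2 was 2.904 in the control, 3.14 in the unaffected and 3.72 in the affected group. The locus of Eif4a2 also covers Rfc4. Eif4a3, the paralog of the exon junction complex, was the lowest of the helicase genes at 96.4, 104 and 92.9 FPKM, with differences of -0.05 and -0.17 that turned to 0.08 and 0.06 when adjusted for length, and the helicase cofactors Eif4b (102, 95.4 and 114 FPKM) and Eif4h (129, 127 and 132 FPKM) were within the threshold.

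At the cap, the genes of the scaffold and of one inhibitor were higher past the threshold in the affected group. Eif4e (chr3:138526191-138557599, plus strand), the cap-binding protein itself, was at 61.9 FPKM in the control, 63.2 in the unaffected and 51.6 in the affected group. Its log2 difference of -0.26 lay just within the threshold against control and that of -0.29 past it against unaffected, and the length-adjusted values were 0.01 and 0.11, of the opposite sign. Eif4g1 (chr16:20672749-20692989, plus strand), the main scaffold, was at 63.5, 53.7 and 80.8 FPKM, with log2 differences of 0.35 and 0.59. Eif4g3 (chr4:137993396-138207118, plus strand), the second scaffold gene, was at 24.8, 19.8 and 32.4 FPKM, with 0.38 and 0.71, and was also lower in the unaffected than in the control group, at -0.33. Adjusted for length, Eif4g1 and Eif4g3 were at 0.18 and 0.20 against control, within the threshold, and at 0.34 and 0.45 against unaffected, past it. Both scaffold genes were highest in the affected and lowest in the unaffected group, and the ratio of Eif4g1 to Eif4e was 1.03 in the control, 0.851 in the unaffected and 1.57 in the affected group. Their transcripts differ in length, at 5440 and 792.5 nt, and this ratio was not adjusted for length.

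Eif4g2, which encodes a relative of eIF4G that lacks the eIF4E-binding region, was the most abundant of the family and nearly level at 533 FPKM in the control, 543 in the unaffected and 531 in the affected group. Its locus carries the joined name of a second gene, 1700012D14Rik, so its value may include reads of both. The other cap-binding paralogs were lower than Eif4e. Eif4e2, which represses translation, was at 40.6, 42.9 and 36.3 FPKM, and Eif4e3 was the lowest counted, at 3.69, 4.30 and 4.05 FPKM. Eif4e1b, the form of the oocyte, was at 0.12, 0.20 and 0.27 FPKM, under the minimum of 1 FPKM.

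Eif4ebp2, the 4E-BP gene most abundant here, was higher in the affected group and Eif4ebp1 was higher in the unaffected group. Eif4ebp2 (chr10:61428298-61452784, minus strand) was at 36.8 FPKM in the control, 35.2 in the unaffected and 50.8 in the affected group, with log2 differences of 0.46 against control, 0.53 against unaffected and -0.07 for unaffected against control. The control and unaffected groups were thus close and the affected group apart, as for Eif4a2 with the opposite sign. Eif4ebp1 (chr8:27260327-27275656, plus strand), which is also a target gene of ATF4, was at 5.12, 7.30 and 4.81 FPKM, with log2 differences of -0.09, -0.59 and 0.50. The ratio of Eif4ebp1 to Eif4ebp2 was 0.139 in the control, 0.208 in the unaffected and 0.0947 in the affected group, and that of Eif4ebp2 to Eif4e was 0.594, 0.557 and 0.984. Neither ratio was adjusted for length, and Eif4ebp2 (3603 nt) is longer than Eif4ebp1 (1997 nt) and Eif4e (792.5 nt).

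Eif4ebp3 shares its locus in the table with Ankhd1, and the pair was at 6.93, 6.85 and 8.98 FPKM, so the higher value of the affected group, at 0.37 and 0.39, cannot be assigned to either gene. Eif4enif1, which carries eIF4E into the nucleus, was at 19.4, 18.7 and 23.0 FPKM, in a locus that covers 7 other coding genes. Its log2 difference against unaffected was 0.29, past the threshold, or 0.19 adjusted for length.

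Of the 5 genes of the eIF1 family, whose products help to choose the start codon, 1 was lower past the threshold against control, where 15.6% of all loci were, and 2 against unaffected, where 22.9% were, and none was higher. Eif1ax (chrX:159372185-159389800, plus strand), the X-linked gene of eIF1A, which keeps the scanning ribosome open, was at 186 FPKM in the control, 198 in the unaffected and 152 in the affected group, with log2 differences of -0.29 and -0.38. Although X-linked like Eif2s3x, it had the opposite order of groups. Eif1, whose protein guards against wrong start codons, was the highest of the family at 368, 388 and 319 FPKM, with a log2 difference against unaffected of -0.28, or -0.02 adjusted for length, and Eif1b was at 307, 304.5 and 256 FPKM, with a log2 difference against unaffected of -0.25 that turned to 0.09. The lowest of the family were Eif1ad, at 15.5, 16.9 and 16.6 FPKM in a locus that covers Banf1, and Eif1a, at 17.3, 16.1 and 14.8 FPKM. Eif1ad was the lower of the pair in the control group and Eif1a in the other groups.

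Eif5b (chr1:37998010-38129662, plus strand), the GTPase that joins the large ribosomal subunit, was at 14.6 FPKM in the control, 12.2 in the unaffected and 19.3 in the affected group, with log2 differences of 0.41 and 0.65, in a locus that runs on over Rev1. Eif5, the GTPase activator of eIF2, was at 83.1, 84.5 and 76.1 FPKM. Eif5a, which acts mainly in elongation, was the highest of these genes at 512, 572 and 458 FPKM, and its paralog Eif5a2 the lowest at 3.49, 3.45 and 3.79 FPKM. The locus of Eif5a also covers Gps2. Eif6, which keeps the ribosomal subunits apart, was at 45.1, 49.6 and 41.2 FPKM. Eif5b was highest in the affected group, and Eif5a and Eif6 were past the threshold against unaffected only, at -0.32 and -0.27. Adjusted for length, none of these calls was kept, with Eif5a at -0.06 and Eif6 at -0.04 against unaffected, and Eif5b at 0.15 against control and 0.26 against unaffected, just within the threshold. Eif5a2 turned to -0.05 and -0.11.

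Of the 57 symbols, 4 do not name initiation factors by function. Eif2c1 to Eif2c4 are older names of the Argonaute genes Ago1 to Ago4, whose proteins carry microRNAs. Eif2c1 was at 25.6 FPKM in the control, 23.1 in the unaffected and 31.9 in the affected group, Eif2c2 at 4.27, 3.81 and 5.79 FPKM, and Eif2c4 at 4.10, 3.49 and 4.73 FPKM. All 3 were highest in the affected and lowest in the unaffected group, and Eif2c1 and Eif2c2 passed the threshold against both. Adjusted for length, no Argonaute gene was past it, with Eif2c1 at 0.08 and 0.09, Eif2c2 at 0.15 and 0.10, and Eif2c4 at -0.03 and 0.07. Eif2c3 was at 0.81, 0.73 and 0.80 FPKM, under the minimum. Without these genes, 7 of 52 were higher past the threshold against control and 11 against unaffected, with the counts of lower genes at 8 and 18 as before. The shares of all loci were 17.5% and 25.1% higher, and 15.6% and 22.9% lower.

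The direction of a gene's difference went with the length of its transcript, in these genes and in the table as a whole. Length was the median over a gene's protein-coding transcripts in GENCODE M21, and 12333 of the 12666 named loci past the filter had a length, as did all of the 57 genes. Across the 55 genes, Spearman's correlation of length with the log2 difference was 0.63 for affected against control, 0.62 for affected against unaffected and -0.51 for unaffected against control. Across the 12333 loci it was 0.56, 0.63 and -0.50. These are descriptions across genes, which share their libraries and are not independent replicates.

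Of the 22 genes shorter than 2000 nt, 21 were lower in the affected group in both comparisons, the exception being the joined locus of Eif4ebp3, whose length is that of Eif4ebp3 alone. Their median log2 difference was -0.15 against control and -0.26 against unaffected, and that of the 4044 loci of this length was -0.16 and -0.26. Of the 17 genes of 3500 nt or more, 12 were higher in both comparisons, with medians of 0.20 and 0.29, where the 4117 loci of this length had 0.16 and 0.23. The 16 genes between had medians of 0.00 and -0.09, against 0.02 and -0.00. The medians of these genes thus lay within 0.09 of those of loci of like length in both comparisons. RNA integrity and library depth per animal are not given in the sources used here, and their part in this trend was not tested.

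**Figure D4:**
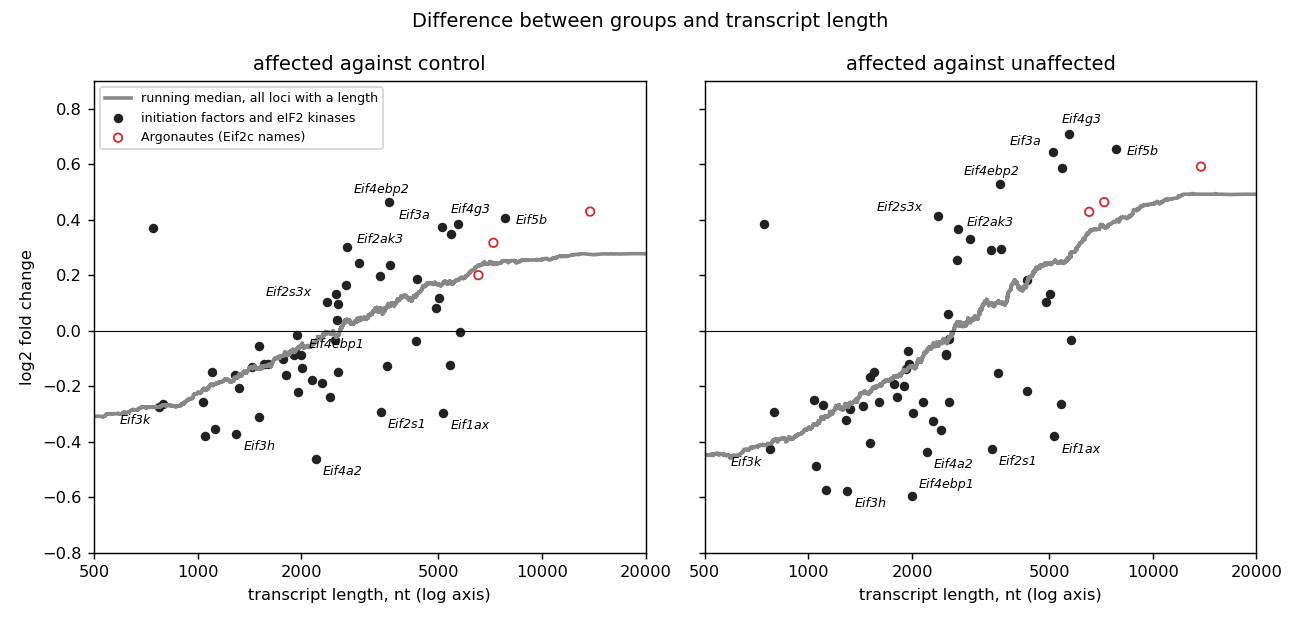
Log2 difference of affected against control (left) and affected against unaffected (right) over transcript length in nt on a log axis. Filled points are initiation factor and kinase genes, open red points are Argonaute genes, and the grey line is the running median of neighbouring loci in order of length over the 12333 loci with a length. Most genes lie along the grey line, with Eif1ax, Eif2s1 and Eif4a2 below it and Eif4ebp2 above it in both panels.

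Once the running median over loci of neighbouring length was subtracted, 3 of the 8 genes that were lower against control remained past the threshold, namely Eif1ax (-0.47), Eif2s1 (-0.37) and Eif4a2 (-0.42). Of the 9 that were higher, Eif2ak3 (0.27), Eif4ebp2 (0.38) and the joined locus of Eif4ebp3 remained. The eIF3 genes Eif3e, Eif3h, Eif3i, Eif3k and Eif3m did not, with values of -0.18, -0.20, -0.16, -0.00 and -0.17, nor did Eif3a (0.21), Eif4g1 (0.18), Eif4g3 (0.20), Eif5b (0.15), Eif2c1 (0.08) and Eif2c2 (0.15). Eif3j2 came to lie past the threshold at -0.30. The 7 genes then past the threshold compare with 9.16% of loci lower and 7.57% higher after the same step.

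Against the unaffected group, 9 of the 18 lower genes remained past the threshold, namely Eif1ax (-0.63), Eif2a (-0.27), Eif2s1 (-0.53), Eif2s2 (-0.32), Eif3h (-0.31), Eif3i (-0.27), Eif3j2 (-0.51), Eif4a2 (-0.37) and Eif4ebp1 (-0.47). Of the 14 higher genes 8 remained, namely Eif2ak3 (0.34), Eif2s3x (0.46), Eif3a (0.40), Eif3b (0.30), Eif4ebp2 (0.43), Eif4g1 (0.34), Eif4g3 (0.45) and the locus of Eif4ebp3. Eif2ak2 (-0.39) and Eif4g2 (-0.30) came to lie past it on the lower side, and of the genes past the threshold Eif3g (0.04) and Eif4e (0.11) changed sign. The 11 lower and 8 higher genes then past the threshold compare with 13.5% and 13.8% of loci after the same step. For unaffected against control, Eif2s3x and Eif4ebp1 remained. Eif1ax, Eif2s1, Eif4a2, Eif2ak3 and Eif4ebp2 were thus past the threshold against both other groups after this step. Against control Eif2ak3 passed it only just, at 0.267 where the threshold is 0.263. The locus of Eif4a2 also covers Rfc4 and runs 13598 bases past the gene, so its adjusted value is uncertain. The adjusted values of Eif3j2 and of the joined locus of Eif4ebp3 were past the threshold as well but cannot be read. Their loci run over Spg11 and Ankhd1, and the length used is that of 1 gene alone. The loci of Eif2ak2 and Eif4g2 also carry joined names, so the same limit holds for their adjusted values.

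RefSeq promoter windows on GRCm38.p6, from 250 bases before to 50 bases after the start site, were at hand for 45 of the 57 genes. They were searched on both strands for CCGGAAG, letters bound by transcription factors of the ETS family, for CACGTG, an E-box bound by factors such as MYC, and for TTGCATCA, the core of an amino acid response element bound by ATF4. CACGTG reads the same on both strands, and no pair of these motifs can share more than a few end letters. CCGGAAG was found in 15 of the 45 windows (33.3%), in 9.12% of all 27025 windows and in 18.1% of the 9406 windows of loci past the FPKM filter. CACGTG was found in 8 (17.8%), against 7.24% and 10.3%, and TTGCATCA in 0, against 0.929% and 0.585%. A match of letters is not a bound site, and its absence says only that these letters are not in this window.

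The matches lay in genes of both directions. Shown are the stretches around a match that lies before the start site, in the gene's own direction with the matched letters in capitals, for genes past the threshold against both other groups whose RefSeq start also occurs in GENCODE transcripts. The stretches are Eif1ax at chrX:159371946-159371992 (plus strand), Eif3m at chr2:105017056-105017102 (minus strand), Eif4ebp2 at chr10:61452767-61452813 (minus strand) and Eif4g1 at chr16:20672653-20672698 (plus strand). The match begins 212, 55, 124 and 54 bases before the start site in that order.
Eif1ax, lower in the affected group: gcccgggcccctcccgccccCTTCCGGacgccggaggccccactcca
Eif3m, lower in the affected group: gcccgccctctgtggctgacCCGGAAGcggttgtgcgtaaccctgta
Eif4ebp2, higher in the affected group: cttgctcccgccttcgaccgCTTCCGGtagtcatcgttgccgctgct
Eif4g1, higher in the affected group: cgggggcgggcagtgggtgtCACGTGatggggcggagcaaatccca
Eif1ax and Eif4ebp2 carry the same letters, CTTCCGG, the reverse complement of the motif searched, and their genes had opposite orders of the groups.

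Partners of initiation whose names begin otherwise had medians above 0, unlike the 55 genes. Of 20 such genes, 2 were lower and 5 higher past the threshold against control, beside 15.6% and 17.5% of all loci, and 2 lower and 8 higher against unaffected, beside 22.9% and 25.1%, with medians of 0.11 and 0.14. Pabpc1, the poly(A)-binding protein that bridges to eIF4G, was at 213 FPKM in the control, 195 in the unaffected and 256 in the affected group, just within the threshold against control at 0.26 and past it against unaffected at 0.40. Paip2, which keeps that protein from the poly(A) tail, was at 160, 177 and 131 FPKM, with log2 differences of -0.29 and -0.43. Cyfip2, a relative of Cyfip1, whose protein holds eIF4E inactive in neurons, was at 31.7, 27.5 and 42.5 FPKM, with 0.42 and 0.63, and Larp1, which binds mRNAs of the translation machinery, at 14.6, 11.8 and 18.8 FPKM, with 0.36 and 0.67. The shortest of these named genes, Paip2, was lowest in the affected group and the longer ones were highest there. Adjusted for length, Paip2 was at -0.02 and -0.04, and against control Larp1 was at 0.12, Cyfip2 at 0.18 and Pabpc1 at 0.24, all within the threshold. Against unaffected, Larp1 (0.31) and Pabpc1 (0.37) stayed past it, and Cyfip2 (0.2634) only just did.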

How the data were processed

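The deposited table holds FPKM, which the authors made with the Cufflinks suite from 50-bp paired reads of TruSeq libraries on the mm10 build. The submitters' processing notes name Bowtie2 2.2.4.0, Cufflinks and Cuffdiff, while the methods give STAR in one place and Bowtie with TopHat in another. Labels and methods also differ on the tissue, and whether counting used strand is not given in the sources used here. Each locus has 1 FPKM per group, pooled by the authors over 3 animals, and 0 columns hold single animals, so no SD, interval or new test could be computed. The table also holds the authors' fold changes, test statistics, p-values, q-values and calls of 3 comparisons, which were not used.

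Log2 differences were computed with a pseudocount of 0.1 FPKM for loci with a mean of at least 1 FPKM, in Python 3.11.15 with pandas 2.3.3 and numpy 2.4.6, and the step was tested on simulated data. Locus starts were raised by 1 base, since they count from 0, and 35 of the 57 loci then shared a border with the RefSeq gene. All genes of the symbol rule are accounted for, and those past a fold of 1.2 in the same direction against both other groups, the eIF2 subunits, the kinases and the lowest and highest gene of each factor are given with all values. The genes, lists and threshold were chosen with earlier results of these data known. Some genes of the marker lists are not reported here. Alternatives were folds of 1.1 and 1.5, pseudocounts of 0 and 1, no filter or a minimum of 5 FPKM, centring on the median of all loci, leaving out joined loci, and subtracting the trend over transcript length.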

Additional observations from a re-analysis of the deposited data

How the results depend on the processing

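The counts depend on the threshold. At a fold of 1.1, 19 genes were lower and 15 higher for affected against control, 29 lower for affected against unaffected, and 8 lower and 10 higher for unaffected against control, where the shares of all loci were 28.6% and 33.1%, 34.7% lower, and 20.8% and 19.1%. At a fold of 1.5, 0 and 0, 1 and 5, and 0 and 0 genes were lower and higher in these comparisons, beside 3.01% and 3.42%, 4.91% and 6.88%, and 3.08% and 2.46% of all loci. Without a filter, 2 genes were higher for unaffected against control. After subtraction of the length trend, 4 were lower and 3 higher against control, 11 lower and 8 higher against unaffected, and 1 lower for unaffected against control, with a median of -0.021 for affected against unaffected. In that setting, of the genes past the threshold, Eif3g (0.044) and Eif4e (0.11) reversed against unaffected, and the cause was not tested. Of the 165 single values, 29 others crossed the threshold there, 5 when centred on all loci, 1 with a pseudocount of 0 and 2 with a pseudocount of 1. Removing the filter moved none of them, and neither did the minimum of 5 FPKM or leaving out joined loci, which keep 150 and 156 of them. No paired analysis was possible because the table holds 1 value per group, which also kept any animal from being left out. The depth of the libraries is unknown, so how precise the low genes are cannot be given.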

Other observations

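Of 12 elongation and termination genes with a mean of at least 1 FPKM, 3 were lower and 1 higher past a fold of 1.2 for affected against control, and 5 lower and 2 higher for affected against unaffected. The shares of all loci were 15.6% lower and 17.5% higher against control, and 22.9% and 25.1% against unaffected. Eef1b2, an exchange factor subunit for elongation factor 1A, was at 281 FPKM in the control, 305 in the unaffected and 208 in the affected group. Eef2, which moves the ribosome along the mRNA, was at 897, 838 and 1026 FPKM, and Eef2k, the kinase that inhibits it, at 15.3, 13.04 and 19.0 FPKM. Dhps, the enzyme that begins the hypusine modification of eIF5A, was at 27.2, 30.3 and 21.4 FPKM. Less the trend over transcript length, Dhps was at -0.18 and -0.24, within the fold, and Eef1b2 at -0.27 and -0.28, past it. Eef1e1, also lower past the fold in both comparisons, stayed past it at -0.34 and -0.45. Eef2k was at 0.2598 against control, just within it, and at 0.49 against unaffected, past it. Eef2 was within it at 0.15 and 0.25. Eef1b2 and Dhps were lowest and Eef2 and Eef2k highest in the affected group. Eef1a1, a gene that every cell uses, is listed at 0 in all 3 groups, so a 0 in this table need not mean that a gene is silent.

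Of 6 mitochondrial initiation and elongation factor genes, Mtif3 alone was past the fold, on the lower side in both comparisons, where 15.6% and 22.9% of all loci were. Less the trend over transcript length, its log2 differences of -0.28 and -0.35 came to -0.18 and -0.17, within the fold. It was at 10.6 FPKM in the control, 11.1 in the unaffected and 8.70 in the affected group. Tufm, the most abundant, was at 62.8, 61.6 and 66.4 FPKM.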
